A study of Mus musculus with 2 samples.

Results

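The miR-29 family was examined in mouse sperm. Its members were taken by name: every entry of the count tables whose name, without the arm and the copy number, is miR-29a, miR-29b or miR-29c. This gave 7 of the 1886 entries, of which 3 are 3p arms and 4 are 5p arms. The series holds 2 small RNA libraries of 1 condition, sperm of naive wild-type C57BL/6J mice aged 3 months, described as biological replicates. Sperm were allowed to leave the dissected epididymis, and somatic cells were lysed with a detergent buffer before RNA isolation. The labels do not say how many mice gave each library, and the names of the tables hold the string POSTTREAT, which the labels do not explain. No second condition was sequenced, so no contrast between conditions exists, and the values below are levels and their spread between the replicates.

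miRs are short RNAs that guide Argonaute proteins to mRNAs, mainly through their seed, bases 2 to 8 from the 5′ end, and thereby lower the output of these mRNAs. A hairpin precursor yields a 5p and a 3p arm, and usually 1 of them is kept. miR-29 is known for lowering collagens and other proteins of the extracellular matrix. It is also known for targeting the mRNAs of the DNA methyltransferases DNMT3A and DNMT3B and of the TET enzymes, which write and oxidize DNA methylation, and that of the survival protein MCL1. Its levels are known to be high in many mature tissues and to rise as neurons mature.

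The sequences of all 7 entries were found in the RefSeq annotation of GRCm38.p6, the build that the submitters' processing notes also name. The 3p arms are shown because they carry nearly all reads of the family and differ in only a few bases. miR-29a-5p is shown as the 5p arm that was read in both libraries. Capitals mark the seed.
miR-29a-3p: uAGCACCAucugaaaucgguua
miR-29b-3p: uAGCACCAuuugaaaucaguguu
miR-29c-3p: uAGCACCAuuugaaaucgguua
miR-29a-5p: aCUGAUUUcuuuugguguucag

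The 3p arms share the seed AGCACCA, and they are the 3 mature sequences with this seed among the 1613 sequences of the table that could be matched. With positions counted from 1 at the 5′ end, miR-29a-3p and miR-29c-3p differ by the single substitution C10U, written with the base of the first-named arm first. miR-29c-3p and miR-29b-3p differ over their shared 22 bases by G18A, U21G and A22U, and miR-29b-3p has 1 base more. miR-29b-3p ends in AGUGUU, a stretch known as a nuclear import signal of this miR, and 2 of the 1613 sequences (0.124%) end in these bases, the other being miR-92b-5p. All of the 3p arms start with U, as do 40.1% of the matched sequences. The first 15 bases of miR-29b-3p and miR-29c-3p are the same, and they can be told apart only from a length of 18 bases on. The study kept reads from 15 bases on, and how it counted a read that matches both is not given in the sources used here, so the division between miR-29b-3p and miR-29c-3p is uncertain for the shortest reads. miR-29a-3p shares its first 15 bases with no other matched sequence. Of the matched sequences, 4.53% have first 15 bases that also occur in another.

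The family comes from 4 hairpins in 2 clusters. On chromosome 6, on the minus strand, Mir29a (ENSMUSG00000065610.1) spans positions 31062660 to 31062747 and Mir29b-1 (ENSMUSG00000065604.2) spans positions 31063023 to 31063093, with 275 bases between them. The GENCODE annotation of GRCm38 places Mir29a in no other gene, and the last 2 bases of Mir29b-1 by coordinate overlap exon 1 of the long non-coding RNA Gm27019. On chromosome 1, on the plus strand, Mir29b-2 (ENSMUSG00000065412.3) spans positions 195037040 to 195037120 and Mir29c (ENSMUSG00000065548.1) spans positions 195037547 to 195037634, with 426 bases between them. Both lie within exon 3 of a retained-intron transcript of the non-coding gene A330023F24Rik on the same strand. On the opposite strand both lie within untranslated sequence of exon 11 of a transcript of Cd46. miR-29b-3p is identical in Mir29b-1 and Mir29b-2, so only the 5p arms tell these hairpins apart.

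Replicate 1 held 4049599 and replicate 2 held 5648067 miR reads, and levels are given as CPM, counts per 1000000 miR reads of the library. With 3 reads taken as the smallest level that can be seen, the limits were 0.741 CPM and 0.531 CPM in replicates 1 and 2. Intervals are Wilson 95% intervals within a library and cover counting error only. Reads were not collapsed to molecules, so copies of a molecule count as separate reads and the intervals can be too narrow. As a check of the labelled tissue, the germ-cell markers were led by miR-34c-5p and took 0.347% and 0.150% of the miR reads. Of 9 named germ-cell markers 7 were listed, 5 had reads in both libraries, and miR-449c-5p and miR-741-3p had none. Markers of other cells were present too. The 5 epithelial markers took 1.06% and 0.852% of the miR reads, and the 4 markers of smooth muscle and stroma took 4.10% and 6.22%. Nearly all of the latter was miR-143-3p alone, with 165421 of 166096 and 349579 of 351102 reads. The next of these markers, miR-145a-5p, had 470 and 1146 reads. The 6 blood markers took 0.0211% and 0.0304%. The 3 skeletal muscle markers summed to 22.2 and 23.9 CPM and the 2 brain markers to 417 and 174 CPM. Most of the brain sum was miR-9-5p, at 408 and 166 CPM, while miR-124-3p had 8.89 and 7.97 CPM. The liver marker miR-122-5p had 2 and 0 reads. The part of such cells in the miR-29 reads was not tested.

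The miR-29 family was present in sperm at a moderate level. Nearly all of its reads were 3p arms, and miR-29a-3p alone held 86.3% of the family's reads in replicate 1 and 86.9% in replicate 2. All 7 entries together reached 346 CPM (328 to 365, 1401 reads) in replicate 1 and 286 CPM (273 to 300.4, 1616 reads) in replicate 2. The mean was 316 ± 42.3 CPM (SD, n = 2 libraries), which is 0.0316% of the miR reads. Of the 7 entries, 4 had at least 1 read in each library, where 20% of all entries did. The 3p arms, 3 of the 7 entries, also had at least 10 reads per library, against 12.9% of all entries, and 2 of them had at least 100, against 6.52%. Of the other entries, 2 were read in 1 library only and 1 in neither.

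miR-29a-3p, made by the chromosome 6 cluster alone, reached 299 CPM (282 to 316, 1209 reads) in replicate 1 and 249 CPM (236 to 262, 1405 reads) in replicate 2. Its mean of 274 ± 35.2 CPM (SD, n = 2) was the 48th highest of the 378 entries read in both libraries, and it ranked 49th within each library. It was the only arm of the family above 100 CPM.

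miR-29c-3p came next, with 119 reads or 29.4 CPM (24.6 to 35.2) in replicate 1 and 114 reads or 20.2 CPM (16.8 to 24.2) in replicate 2. Its mean of 24.8 ± 6.51 CPM (SD, n = 2) ranked 124th. The level of miR-29a-3p was 10.2-fold (8.42 to 12.3) that of miR-29c-3p in replicate 1 and 12.3-fold (10.2 to 14.9) in replicate 2, although the arms differ by 1 base.

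miR-29b-3p, the product of 1 hairpin in each cluster, had 58 reads or 14.3 CPM (11.1 to 18.5) in replicate 1 and 87 reads or 15.4 CPM (12.5 to 19.0) in replicate 2. Its mean of 14.9 ± 0.764 CPM (SD, n = 2) ranked 142nd. In both libraries the order was therefore miR-29a-3p, miR-29c-3p, miR-29b-3p. The step from miR-29a-3p to the others was far larger than the spread between replicates. The step from miR-29c-3p to miR-29b-3p was not secure. It was 2.05-fold (1.50 to 2.80) in replicate 1 and 1.31-fold in replicate 2, where the interval of 0.992 to 1.73 includes equal levels.

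**Figure D1:**
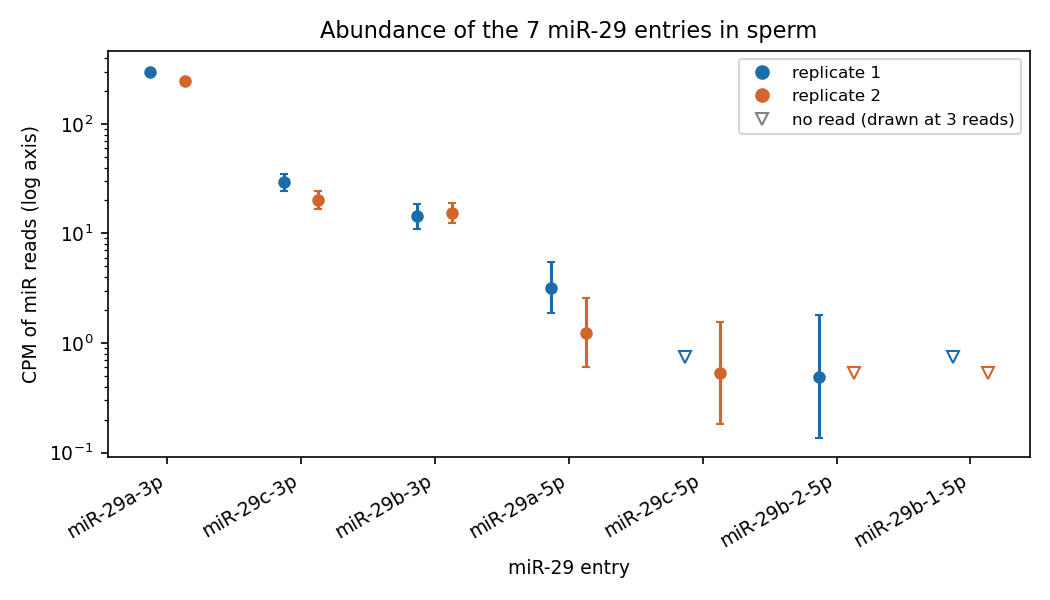
Abundance of the 7 miR-29 entries in CPM of miR reads, on a log axis, in replicate 1 (blue) and replicate 2 (orange), with Wilson 95% intervals as bars. Open triangles mark entries without a read, drawn at the level of 3 reads. miR-29a-3p, at 299 and 249 CPM, lies about an order of magnitude above the other 3p arms. The 5p arms lie lowest, with miR-29a-5p at 3.21 and 1.24 CPM and the others at or below the limit of 3 reads.

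The 5p arms had few reads, and all but miR-29a-5p were at or below the limit. miR-29a-5p was counted 13 times in replicate 1, at 3.21 CPM (1.88 to 5.49), and 7 times in replicate 2, at 1.24 CPM (0.600 to 2.56). miR-29c-5p had no read in replicate 1 and 3 reads in replicate 2. miR-29b-2-5p had 2 reads in replicate 1 and none in replicate 2, and miR-29b-1-5p had none in either library. Where an entry had no read, the limit of 3 reads stands at 0.741 CPM (replicate 1) or 0.531 CPM (replicate 2), and the upper Wilson bound at 0.949 or 0.680 CPM. With 2 reads on the 5p arms of miR-29b, the counts do not show how much of miR-29b-3p came from each of its hairpins.

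Within the 3p reads of the family, the share of miR-29a-3p was close in both libraries. miR-29a-3p took 87.2% (85.4% to 88.9%, 1209 of 1386 reads) in replicate 1 and 87.5% (85.8% to 89.0%, 1405 of 1606 reads) in replicate 2. miR-29c-3p took 8.59% (7.22% to 10.2%) and 7.10% (5.94% to 8.46%), and miR-29b-3p took 4.18% (3.25% to 5.37%) and 5.42% (4.41% to 6.63%). The shares of miR-29b-3p and miR-29c-3p thus moved in opposite directions between the libraries, with overlapping intervals. Added together, which does not depend on how short reads were divided between them but still on whether such reads were dropped or counted more than once, they took 12.8% (11.1% to 14.6%) and 12.5% (11.0% to 14.2%).

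**Figure D2:**
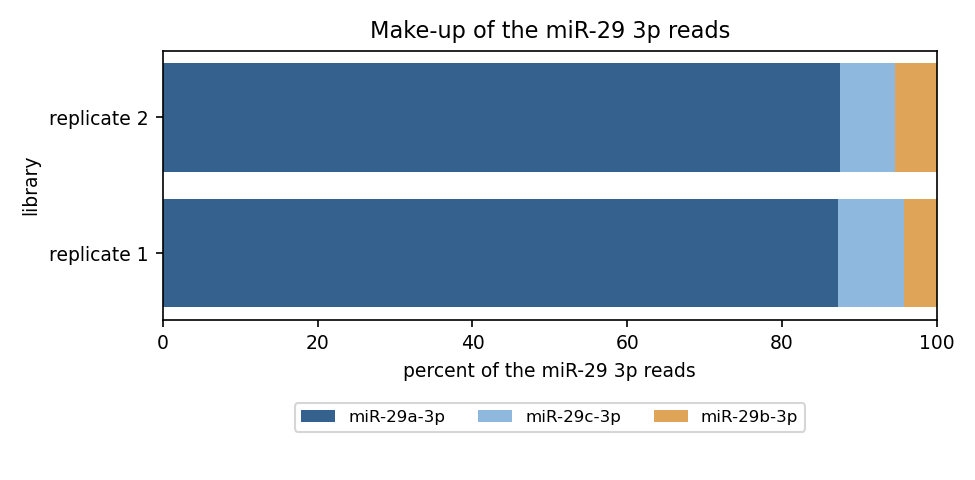
Make-up of the miR-29 3p reads in each library, as percent of these reads, with miR-29a-3p in dark blue, miR-29c-3p in light blue and miR-29b-3p in orange. miR-29a-3p fills 87.2% and 87.5% of the bars.

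Each member was almost entirely a 3p arm. The 3p share of miR-29a was 98.9% (98.2% to 99.4%, 1222 reads) in replicate 1 and 99.5% (99.0% to 99.8%, 1412 reads) in replicate 2. For miR-29b, with the 5p arms of both hairpins joined, it was 96.7% (88.6% to 99.1%, 60 reads) and 100% (95.8% to 100%, 87 reads). For miR-29c it was 100% (96.9% to 100%, 119 reads) and 97.4% (92.7% to 99.1%, 117 reads). Over the family, 15 of 1401 reads (1.07%, 0.650% to 1.76%) and 10 of 1616 reads (0.619%, 0.336% to 1.14%) fell on 5p arms. The intervals of the members overlap within each library, and a difference in arm use between them was not tested. The 3p share of miR-29c lay above that of miR-29a in replicate 1 and below it in replicate 2.

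Such one-sided use of the arms was common in these libraries. Of 181 miR names with both arms listed and at least 10 reads in each library, 65.7% had at least 95% of their reads on the leading arm in both libraries, and all 3 miR-29 names did. The median share of the leading arm was 99.3%. The 3p arm took at least 95% in both libraries in 28.2% of the 181 names. It led in 77 names, the 5p arm led in 100, and in 4 the leading arm was not the same in both libraries or was tied.

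**Figure D3:**
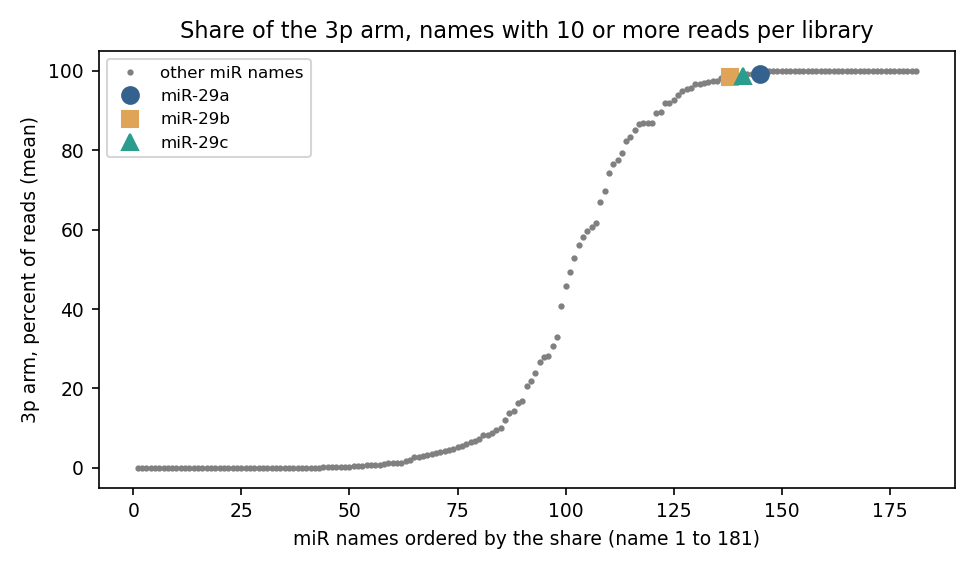
Mean share of the 3p arm over both libraries, in percent of the reads of a miR, for the 181 miR names with at least 10 reads in each library, ordered by that share. Grey points are other miRs, and miR-29a, miR-29b and miR-29c, with mean shares of 99.2%, 98.3% and 98.7%, lie in the upper plateau with many others.

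Since the 3p arms share their seed, their reads were also summed as 1 group and set beside the groups formed by all other seeds. Sequences were matched for 1608 of the 1886 entries, which held 94.7% and 92.5% of the miR reads. Entries with no match were counted as groups of their own, even where they may share a seed with another group. For example, miR-30d-5p and miR-30b-5p stood apart from the group led by miR-30a-5p. The ranks and the number of groups therefore depend on the matching. The AGCACCA group reached 313 ± 40.9 CPM (SD, n = 2) and ranked 33rd of 470 groups with reads. The group just above it was led by miR-34b-3p, an arm of a germ-cell miR, with 363 ± 266 CPM, and the group just below was miR-9-5p, known from neurons, with 287 ± 171 CPM (SD, n = 2 each). The 3 groups did not differ beyond the spread between replicates. In replicate 2 the miR-29 group, at 284 CPM, lay above both of them, at 174 and 166 CPM. In replicate 1, at 342 CPM, it lay below both, at 551 and 408 CPM. The first group, that of miR-10b-5p and miR-10a-5p, held 791774 ± 16732 CPM (SD, n = 2).

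**Figure D4:**
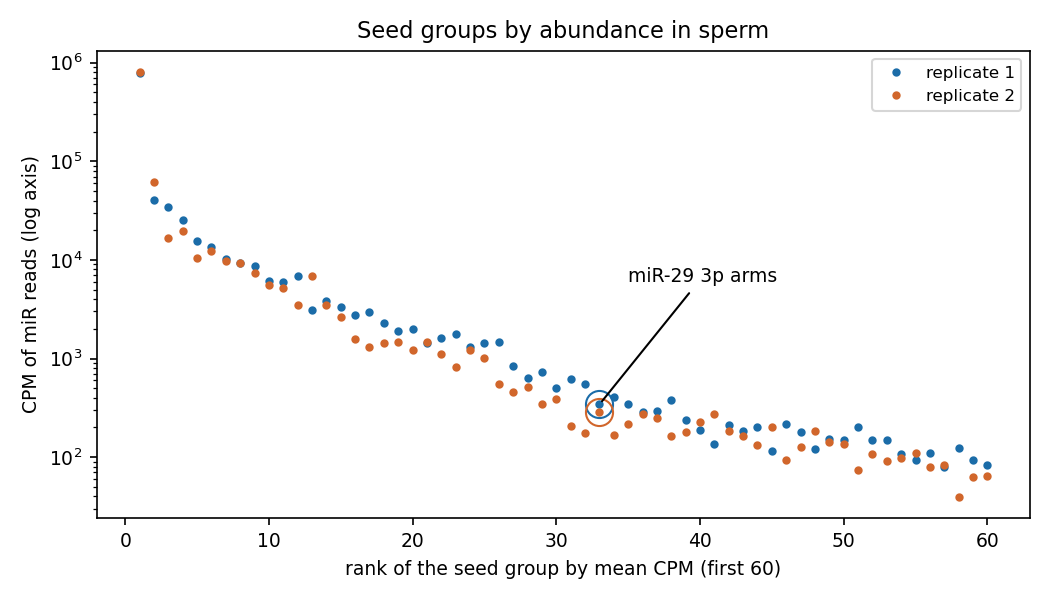
CPM of the 60 most abundant seed groups, on a log axis, by their rank in mean CPM, in replicate 1 (blue) and replicate 2 (orange). The circled miR-29 group, at rank 33, lies at 342 and 284 CPM, in the middle of a long decline in which the replicates of neighbouring groups often differ more than their ranks do.

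The entries most like each 3p arm in level over both libraries, by the Euclidean distance in log2(CPM + 1) over 2 libraries, were named as a description of where the arm stands. For miR-29a-3p these were miR-340-5p with 294 and 252 CPM, at a distance of 0.03, and miR-186-5p with 287 and 272 CPM, at 0.14. miR-340-5p had 1192 and 1424 reads, against 1209 and 1405 of miR-29a-3p. For miR-29c-3p they were miR-423-3p with 35.1 and 21.1 CPM and miR-24-2-5p with 25.7 and 23.2 CPM. For miR-29b-3p they were miR-187-3p with 12.6 and 16.8 CPM and miR-1247-5p with 12.6 and 12.9 CPM.

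miR-29 was then set beside the miR-30, miR-26 and miR-148 families, the last taken with miR-152, which, like it, have a few near-identical members. It was much the least abundant of the 4. The families held 12238 ± 1097 CPM, 5873 ± 437 CPM and 13251 ± 3632 CPM (SD, n = 2 each). The miR-30 family had 37.6-fold its reads in replicate 1 and 40.1-fold in replicate 2, the miR-26 family 17.9-fold and 19.4-fold, and the miR-148 family 45.7-fold and 37.3-fold. These gaps exceed the spread between replicates of each family. All 11 miR-30 entries and all 6 miR-148 entries were read in both libraries, against 3 of 5 miR-26 entries and 4 of 7 miR-29 entries. The families share a steep make-up, with 1 entry holding most reads. miR-29a-3p held 86.6% ± 0.458 (SD, n = 2) of the miR-29 reads, miR-30a-5p held 78.3% ± 3.94 of the miR-30 reads, miR-26a-5p held 98.8% ± 0.241 of the miR-26 reads and miR-148a-3p held 98.0% ± 0.0344 of the miR-148 reads. The arm in use differed. 3p reads made up 98.9% and 99.4% of miR-29 and 99.2% and 99.0% of miR-148, but 2.23% and 1.84% of miR-30 and 0.0439% and 0.0923% of miR-26.

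Other miRs known to target mRNAs of DNA methyltransferases were taken as a list. All 7 were read in both libraries, where 20% of all entries were. The list was drawn up with earlier results of these data known, so this count is not a result about such miRs. miR-148a-3p, a regulator of DNMT1 and DNMT3B, had 15503 and 10464 CPM, which was 51.9-fold and 42.1-fold the level of miR-29a-3p. miR-143-3p, which targets DNMT3A and leads the smooth muscle and stroma markers, had 40849 and 61894 CPM, or 137-fold and 249-fold. The other 5 entries lay below miR-29a-3p in both libraries. Among them miR-148b-3p had 173 and 85.3 CPM and miR-126a-3p, known from endothelium, had 80.3 and 82.5 CPM. miR-101a-3p had 30.1 and 42.5 CPM, miR-152-3p 22.7 and 24.4 CPM, and miR-101b-3p 16.1 and 5.13 CPM. miR-29a-3p was thus the third of the 8 entries in both libraries. miR-29c-3p, at 29.4 and 20.2 CPM, lay within the range of the lower entries in both libraries. miR-29b-3p lay below all of them in replicate 1, at 14.3 CPM, and within their range in replicate 2, at 15.4 CPM.

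Between the replicates, the 3p arms differed by at most 0.52 on the log2 scale. The log2 ratio of replicate 2 to replicate 1, with 1 CPM added to each, was -0.26 for miR-29a-3p, -0.52 for miR-29c-3p, 0.10 for miR-29b-3p and -0.91 for miR-29a-5p. These 4 members had 10 or more reads over both libraries. Their median absolute log2 ratio was 0.39, beside 0.49 over all 323 such entries. The counting intervals of the libraries did not overlap for miR-29a-3p and miR-29c-3p, both lower in replicate 2, where 35% of the 323 entries did the same. None of the 4 members had such a gap with replicate 2 higher, against 6.81% of the entries. The ratios depend on the scaling. TMM normalization, which sets the bulk of entries level between libraries, raised the ratios by 0.35, less where the added 1 CPM weighs, and the median log2 ratio over the 323 entries went from -0.25 to 0.057. After TMM the ratio was 0.087 for miR-29a-3p, with its sign turned, -0.18 for miR-29c-3p, 0.43 for miR-29b-3p and -0.68 for miR-29a-5p. No member then had intervals that did not overlap in either direction, where 18.3% of the entries were higher and 21.4% lower in replicate 2. Over the same libraries the log2 ratio, here with no CPM added, was -1.20 for the summed germ-cell markers, -1.26 for the brain, -0.32 for the epithelial, 0.10 for the skeletal muscle, 0.52 for the blood and 0.60 for the smooth muscle and stroma markers, against -0.27 for the miR-29 family. After TMM these were -0.85, -0.91, 0.035, 0.46, 0.87 and 0.95 in the same order, against 0.077 for the family. The shift of 0.35 was the same for all sums, so those slightly negative before it changed sign. These were the epithelial sum and the miR-29 family, and also the miR-30 family (-0.18 to 0.17) and the miR-26 family (-0.15 to 0.20). The miR-148 family (-0.57 to -0.22) kept its sign. Within the epithelial sum, with 1 CPM added, miR-141-3p and miR-200a-3p turned to 0.11 and 0.16 after TMM. By contrast, miR-200b-3p, miR-200c-3p and miR-429-3p stayed lower in replicate 2, at -0.30, -0.36 and -0.36. The sums hide members that moved unlike the rest, here before TMM and with 1 CPM added. Among the blood markers miR-223-3p was lower in replicate 2, at -0.65, while the others were higher, up to 1.68 for miR-144-3p. In skeletal muscle miR-1a-3p was lower, at -0.28, while the others were higher, with 0.18 for miR-133a-3p. The brain sum followed miR-9-5p, at -1.29, while miR-124-3p stood at -0.14. The liver marker, with no read in replicate 2, gave no ratio. The part of these cells in the miR-29 ratios was not tested.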

How the data were processed

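Small RNA was sequenced from 2 sperm libraries. The authors trimmed and removed adapters (cutadapt 1.8.1 per the submitters' processing notes), kept reads of at least 15 nucleotides and mapped them with Bowtie 1.1.2, first without mismatches to miR and piRNA sequences. HTSeq is named among the tools. They deposited raw read counts for each mature miR and library. The miR annotation release is not given in the sources used here. This first step may leave out edited or extended reads. Per the paper, reads still unmapped were later mapped to the mouse genome with a mismatch allowed. Whether such reads entered the miR counts is not given in the sources used here. Of 5 summary entries per table, only the reads assigned to no miR were above 0. They were 38.1% and 26.3% of the listed reads and stayed out of the totals.

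Counts were scaled to CPM and given as mean ± SD. Wilson intervals came from scipy 1.17.1 (Python 3.11.15), TMM from edgeR 4.0.16 and size factors from DESeq2 1.42.0 (R 4.3.3). Arms were compared by name, with copies of a hairpin joined. With 1 condition no test between groups was made. Only the log2 ratios and the overlap of intervals were tested on simulated data. The simulated counts varied by counting error alone, so they do not stand for the spread between these replicates. Named miRs were all miR-29 arms, the 2 entries nearest in level to each 3p arm, the neighbouring seed groups, 3 comparison families, a list of DNA methyltransferase regulators and cell type markers. The members and lists were chosen with earlier results of these data known.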

Additional observations from a re-analysis of the deposited data

How the results depend on the processing

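With all listed reads as denominator the summed abundance of the miR-29 family was 212 CPM in place of 316, and without miR-10a-5p and miR-10b-5p in the denominator it was 1514 CPM. Both change only the denominator. It shifted by under 1 SD with TMM, with DESeq2 size factors and in either library alone, and with 2 libraries the last cannot be otherwise. The log2 ratio between the replicates changed sign for the family, from -0.27 to 0.076 with TMM and 0.068 with DESeq2 size factors, and for miR-29a-3p, from -0.26 to 0.087 and 0.079. Since these scalings set the bulk of entries level, the sign follows the choice of scaling. With at least 100 reads in each library 2 entries passed in place of 4. Thinned to equal depth, miR-29a-3p took 87.6% of the 3p reads in place of 87.4%, a move just beyond the SD of 0.180. The rank of the seed group, 33, was 26 with unmatched entries left out, an alternative chosen after seeing the data, and 31 and 36 in single libraries. No paired analysis was possible because the series holds 1 group. Depth limits the 5p arms and the order of miR-29c-3p and miR-29b-3p.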

Other observations

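The letters of the miR-29 seed also occur in miR-770-5p from base 1 and in miR-3547-3p from base 3, and neither had a read in either library. miR-92b-5p, the other matched sequence that ends like miR-29b-3p, had 1 read in replicate 1 and 0 in replicate 2.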
